A study of Rattus norvegicus with 5 samples.

Results

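The genes examined carry glucose into brain cells and break it down to lactate: the glucose transporters Slc2a1 and Slc2a3, hexokinase 1 (Hk1), the 3 phosphofructokinase genes Pfkp, Pfkm and Pfkl, aldolase A (Aldoa), neuronal enolase (Eno2) and the lactate dehydrogenase genes Ldha and Ldhb. They were chosen by name, and every probe set whose only annotated gene symbol was a listed name was taken, which gave 8 of the 10 genes, with 17 of the 8799 probe sets on the array. Eno2 and Ldha had no probe set annotated to them alone, so their levels are not analysed here. Of the 17 probe sets, 3 are hexokinase quality control probe sets of the array maker. Of the other 14, 13 passed the filter on dim probe sets and were tested. Rat hippocampus labelled P5 was measured on 5 single-colour arrays of total RNA: 2 labelled as fetal alcohol exposed, 1 as fed an isocaloric diet and 2 as fed a control diet, without saying whether dam or pup was fed. The labels give no strain, sex, alcohol dose or timing, and do not say whether the samples of a group are separate animals or pools, so p-values measure only the spread between these samples, which may be technical. The isocaloric diet is 1 array with no replicate check.

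Glucose crosses the blood-brain barrier and cell membranes through facilitative transporters, GLUT1 (Slc2a1) mainly at endothelium and glia and GLUT3 (Slc2a3) mainly at neurons. Hexokinase traps it as glucose 6-phosphate, and phosphofructokinase, a tetramer built from liver (Pfkl), muscle (Pfkm) and platelet (Pfkp) subunits in brain, commits it to glycolysis. The immature brain draws on ketone bodies and lactate beside glucose, and glycolytic capacity rises as the hippocampus matures.

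In these data the platelet-type subunit Pfkp was the member that stood highest after fetal alcohol: both of its probe sets were above every isocaloric and control diet array, by 1.90-fold and 1.69-fold over control diet. Over the isocaloric array they were 1.24-fold and 1.26-fold higher, and that array was itself 1.53-fold and 1.34-fold over control diet. Pfkl and Slc2a1 varied more between arrays of the same group or with the isocaloric array than between fetal alcohol and control diet. The remaining members, Slc2a3, Hk1, Pfkm, Aldoa and Ldhb, differed from control diet by 0.43 or less in either direction on the log2 scale. No member probe set passed the threshold of 0.05 in limma after adjustment over all 5244 probe sets tested, and 0% of all probe sets did.

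The bases before the annotated start sites of the 3 members that were at least 1.5-fold apart without overlap in any comparison are shown so that they can be compared. Each is the 250 bases upstream, 5′ to 3′ on the gene's strand, from RefSeq on GRCr8, and capitals mark matches on either strand to ACGTG, the core of the hypoxia response element, and to GGGCGG, the GC box of Sp1, which overlapped in none of the 3.
Pfkp, chr17:68639563-68639812, plus strand: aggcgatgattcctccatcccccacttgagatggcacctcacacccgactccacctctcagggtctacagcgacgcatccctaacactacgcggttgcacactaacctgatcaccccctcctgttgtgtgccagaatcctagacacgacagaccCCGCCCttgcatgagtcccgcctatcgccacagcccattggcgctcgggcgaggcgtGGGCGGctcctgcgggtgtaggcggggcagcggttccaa
Pfkl, chr20:10663715-10663964, plus strand: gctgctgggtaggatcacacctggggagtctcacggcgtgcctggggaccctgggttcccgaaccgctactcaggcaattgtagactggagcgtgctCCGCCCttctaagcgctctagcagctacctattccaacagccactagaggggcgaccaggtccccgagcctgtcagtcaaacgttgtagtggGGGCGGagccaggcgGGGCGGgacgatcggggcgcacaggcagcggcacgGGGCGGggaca
Slc2a1, chr5:138002272-138002521, plus strand: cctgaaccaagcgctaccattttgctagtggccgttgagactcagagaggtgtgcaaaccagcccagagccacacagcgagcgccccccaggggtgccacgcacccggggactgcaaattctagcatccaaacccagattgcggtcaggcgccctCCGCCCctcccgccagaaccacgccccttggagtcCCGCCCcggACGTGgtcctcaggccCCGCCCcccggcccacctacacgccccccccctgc
The Pfkp window held no ACGTG and 2 GC boxes, the Pfkl window no ACGTG and 4 GC boxes, and the Slc2a1 window 1 ACGTG and 3 GC boxes. The start sites of Pfkp and Pfkl lie inside the annotated spans of these genes. Windows were found for 9 of the 10 listed genes, 12 in all, since Hk1 and Aldoa have several starts, and those of Eno2 and Ldha are counted among them. ACGTG was in 6 of these 12 and GGGCGG in 7, while 16.6% and 30.5% of all 33469 such windows held them. These matches describe the letters of the windows and are not binding sites.

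**Figure D1:**
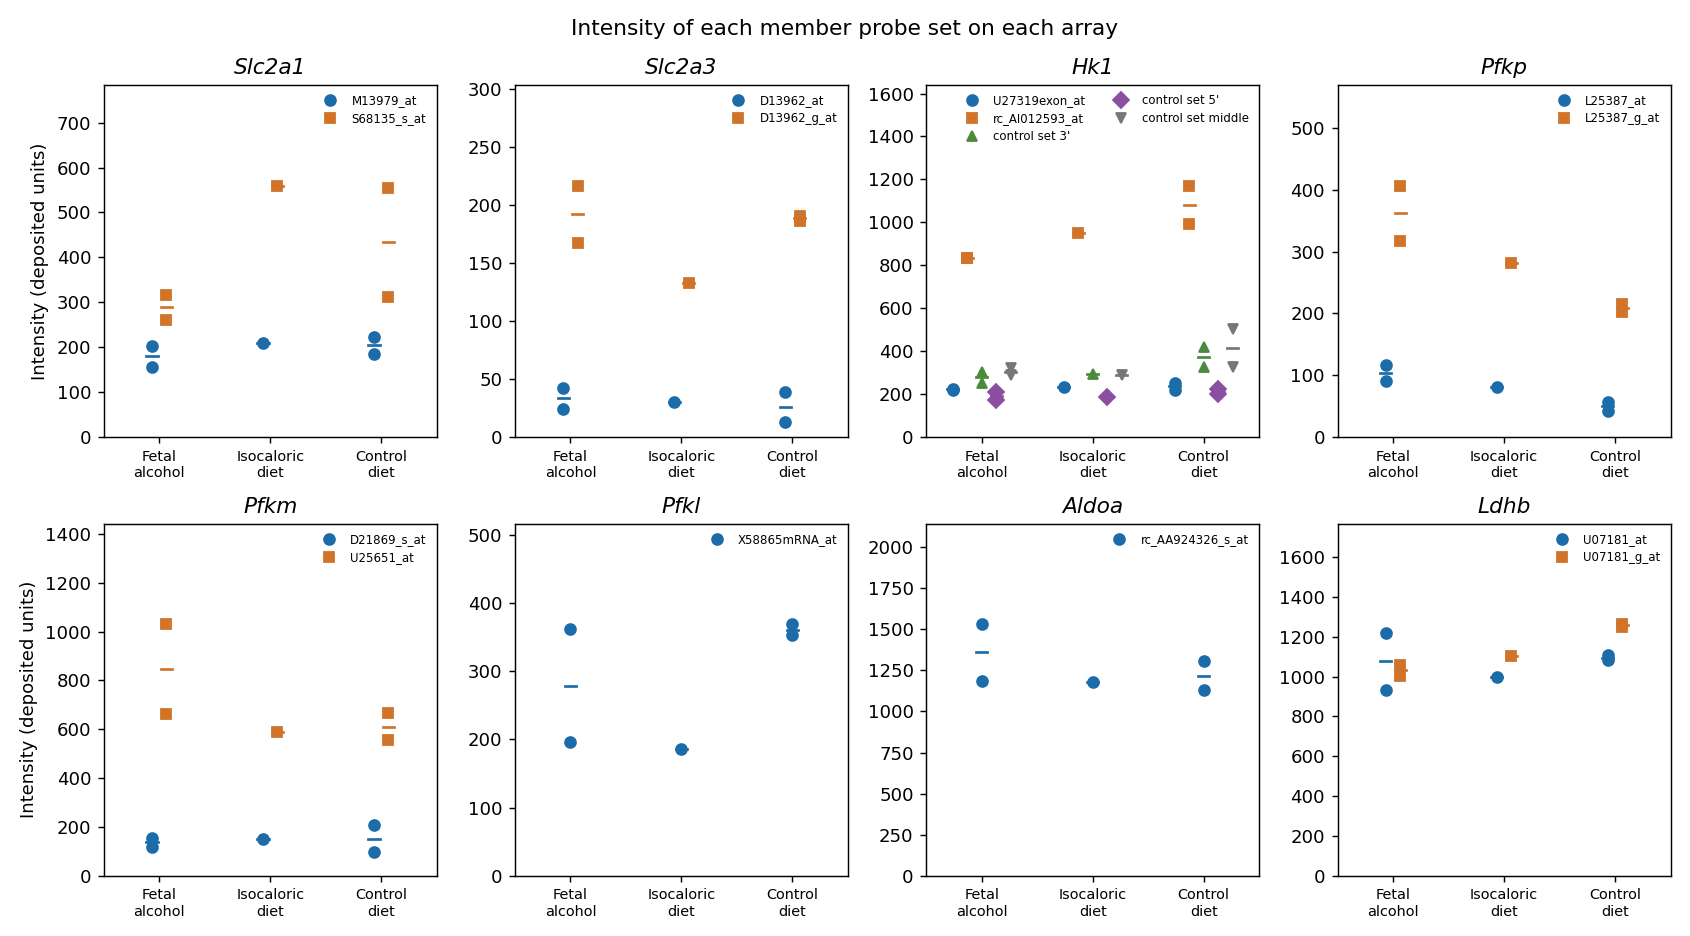
Intensity of every member probe set (vertical axis, deposited units, starting at 0) on the fetal alcohol, isocaloric and control diet arrays (horizontal axis), 1 panel per gene. Each point is 1 array, short lines are group means, and colours and shapes are probe sets. The Pfkp points lie highest on the fetal alcohol arrays, while 1 Pfkl point of the fetal alcohol group lies at the control diet level and the other at the isocaloric level.

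The values are deposited intensities, 1 per probe set and array, and levels of different probe sets cannot be set against each other. Differences are limma estimates on log2(intensity + 10.6) ± SE, where the added offset understates the change of dim probe sets. The 5 arrays had median intensities between 49.0 and 55.7. In bulk tissue fewer cells of a type and less RNA per cell cannot be told apart. Among the marker lists, choroid plexus genes differed most: 6 of 8 had a probe set and 5 were tested. Of these, 4 were lower in fetal alcohol than in control diet at an unadjusted p under 0.05 in limma, beside 207 of all 5244 probe sets. Prlr had 0.04 ± 0.24. The summed intensity was 1491 and 262 with fetal alcohol, 6459 with isocaloric diet and 6646 and 6213 with control diet. On every array but fetal alcohol array 2, most of this sum was Ttr, at 1276 and 19.3, 5745, and 6228 and 5728 in the same order. All 7 tested meningeal genes were lower on average in fetal alcohol than in control diet, with a median difference of -0.68. Of them, 3 were without overlap, beside 17.7% of all probe sets in the lower direction. Aldh1a2 was the 1 with an unadjusted p under 0.05 in limma, beside the same 207 of 5244. The meningeal sums overlapped, at 2283 and 1175 with fetal alcohol, 1944 with isocaloric diet and 2258 and 3278 with control diet. Neuron markers summed to 6316 and 6958, 5531, and 6133 and 5806 in the same order, without overlap. This rests on Thy1, at 1622 and 1185, 786, and 752 and 755, and the sums without Thy1 overlap. Of the 9 neuron markers tested, 6 were higher and 3 lower in fetal alcohol than in control diet. Thy1 (0.87 ± 0.23) was the 1 with an unadjusted p under 0.05 in limma, beside 1.66% of all probe sets higher. Syn1 had -0.61 ± 0.27. The part of neuron markers in the members' values was not tested. The markers of hippocampal excitatory neurons, 5 of 8 with a probe set, were present with sums of 2524 and 2172, 1799, and 2082 and 2052 on the fetal alcohol, isocaloric and control diet arrays. Most of this sum was Nrgn, at 2161 and 1720 with fetal alcohol, 1474 with isocaloric diet and 1536 and 1546 with control diet. Against control diet, 1 of the 4 tested was higher and 2 lower in fetal alcohol without overlap, beside 16.8% and 17.7% of all probe sets. The 2 lower genes were the transcription factor genes Neurod2 (-0.73 ± 0.25, limma unadjusted p = 0.017, adjusted p = 0.725) and Neurod1 (-0.63 ± 0.32, adjusted p = 0.911). Neurod2 measured 83.8 and 110 with fetal alcohol, 88.0 with isocaloric diet and 185 and 150 with control diet. Neurod1 measured 109 and 221, 126, and 241 and 251 in the same order. For both genes the isocaloric array lay within the range of the fetal alcohol arrays. Their part in the members' values was not tested. Neurod6, Prox1 and Zbtb20 had no probe set of their own symbol, so the label of the tissue was checked only in part.

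**Figure D2:**
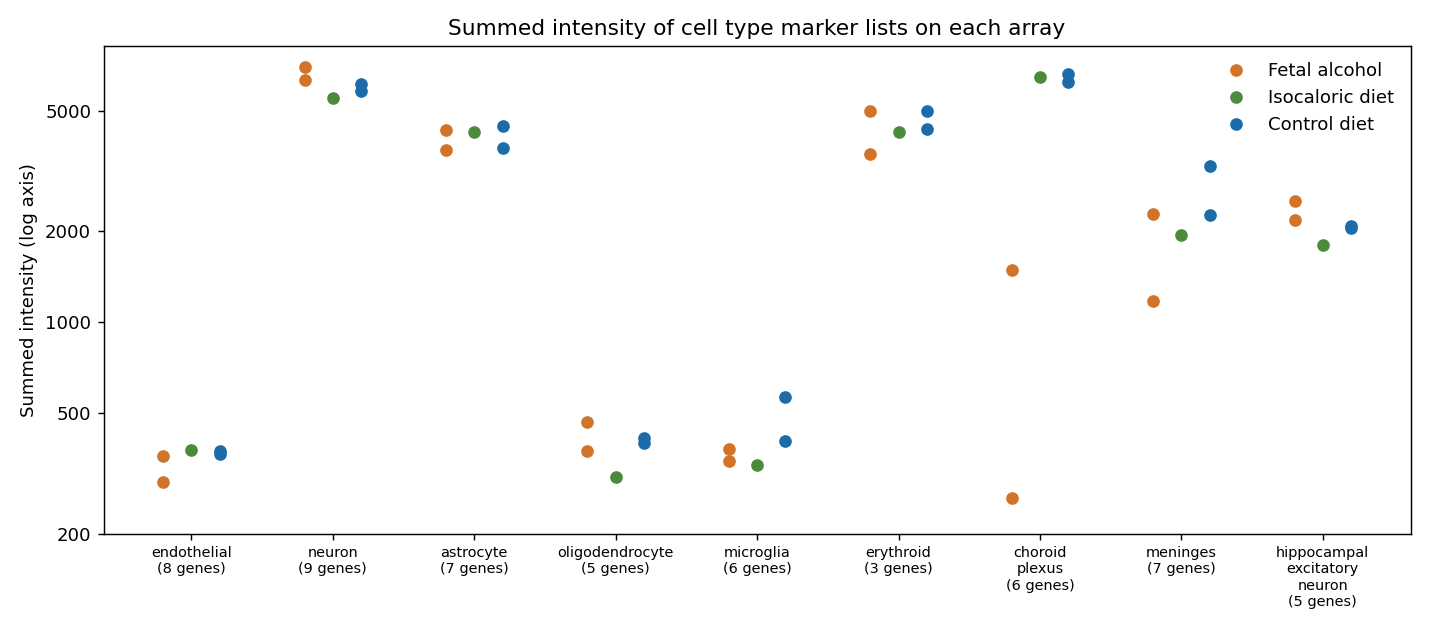
Summed intensity (logarithmic axis) of the marker genes of 9 cell types and tissues, 1 point per array, with fetal alcohol left, isocaloric in the middle and control diet right in each list. The choroid plexus sums of 1491 and 262 on the fetal alcohol arrays lie far below the others. On every array but fetal alcohol array 2, most of this sum is Ttr. Neuron sums are 6316 and 6958 with fetal alcohol, 5531 with isocaloric diet and 6133 and 5806 with control diet, without overlap. Without Thy1 the neuron sums overlap. Astrocyte and oligodendrocyte sums of fetal alcohol and control diet overlap.

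The glucose transporters had no difference past the threshold between fetal alcohol and control diet, and arrays of a group lay as far apart as the groups. Slc2a1 encodes GLUT1, the carrier of the blood-brain barrier, also present in choroid plexus epithelium. Its brighter probe set S68135_s_at measured 262 and 316 with fetal alcohol, 560 with isocaloric diet and 312 and 554 with control diet. The means were 289 ± 38.3 for fetal alcohol and 433 ± 171 for control diet (SD, n = 2 each). The control diet arrays were 1.75-fold apart, with the lower of them within the range of the fetal alcohol arrays and the higher next to the isocaloric array. The difference of fetal alcohol from control diet was -0.52 ± 0.30 (limma adjusted p = 0.946). It ran from -0.92 to -0.11 when 1 array was left out, the smaller size without control diet array 2. The second Slc2a1 probe set, M13979_at, measured 202 and 157 with fetal alcohol, 209 with isocaloric diet and 185 and 223 with control diet, a difference of -0.18 ± 0.25. Its groups overlapped.

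Against the isocaloric array, S68135_s_at of Slc2a1 had the largest difference among the members, -0.94 ± 0.37 (unadjusted p = 0.0355, adjusted p = 0.998 in limma). It was the 1 of 13 member probe sets at least 1.5-fold apart without overlap in this comparison, beside 8.87% of all probe sets (3.83% in the lower direction), and the 1 with an unadjusted p under 0.05, beside 4.21% (1.54% lower). M13979_at gave -0.22 ± 0.30 in the same comparison, so the probe sets of the gene differed in size. At S68135_s_at the fetal alcohol arrays, where choroid plexus genes summed to 1491 and 262, measured 262 and 316. The isocaloric array, with a sum of 6459, measured 560. Control diet arrays 1 and 2, with sums of 6646 and 6213, measured 312 and 554. At M13979_at the values in the same order of arrays were 202 and 157, 209, and 185 and 223. Endothelial markers, 8 of 14 with a probe set, summed to 296 and 362 with fetal alcohol, 378 with isocaloric diet and 367 and 376 with control diet. The part of either marker list in the Slc2a1 values was not tested.

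Slc2a3 encodes GLUT3, the high-affinity carrier of neurons. Its probe set D13962_g_at measured 167 and 217 with fetal alcohol, 133 with isocaloric diet and 186 and 191 with control diet. The control diet values lay between the fetal alcohol values, and the difference was 0.01 ± 0.24, with a 95% interval of -0.54 to 0.56. The isocaloric array was below the other 4, at -0.47 ± 0.29 from control diet (adjusted p = 0.853). The second probe set, D13962_at, was under the filter and was not tested: it measured 24.2 and 42.6, 29.9, and 12.7 and 39.0 on the fetal alcohol, isocaloric and control diet arrays.

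Hk1, the main hexokinase of brain, measured less on the fetal alcohol arrays at its brightest probe set, within the error of the fit. Probe set rc_AI012593_at gave 835 and 836 with fetal alcohol, 950 with isocaloric diet and 1172 and 994 with control diet. The fetal alcohol values lay below all 3 other arrays, and the difference from control diet was -0.36 ± 0.21 (limma adjusted p = 0.946), or 1.29-fold lower. U27319exon_at, the other tested probe set of Hk1, overlapped between the groups, with a difference of -0.08 ± 0.23. The control probe sets sample Hk1 at 3 places along the transcript and were not tested. The one nearest the 3′ end measured 305 and 250 with fetal alcohol, 292 with isocaloric diet and 420 and 327 with control diet, without overlap. The one nearest the 5′ end measured 211 and 175, 185, and 225 and 199 in the same order of groups, with overlap, a difference of -0.13. The middle one had a difference of -0.41.

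The 3′ to 5′ ratio of the Hk1 control probe sets, a measure of RNA and labelling quality, was 1.45 and 1.43 with fetal alcohol, 1.58 with isocaloric diet and 1.87 and 1.64 with control diet. The same ratio of beta-actin was 1.18 and 1.26, 1.12, and 1.32 and 1.34. Both ratios were highest on the control diet arrays, as was the brightest probe set of Hk1. The ratio of Gapdh did not follow them, at 0.984 and 0.877 with fetal alcohol, 0.931 with isocaloric diet and 0.878 and 0.895 with control diet. The part of RNA quality in the Hk1 difference was not tested.

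The phosphofructokinase subunits differed in direction and size, and none passed the threshold. Pfkp, the platelet-type subunit, has 2 probe sets, both designed from sequence L25387, so they are not independent measures. L25387_g_at measured 317 and 407 with fetal alcohol, 282 with isocaloric diet and 202 and 215 with control diet. L25387_at, the dimmer, measured 90.6 and 117 with fetal alcohol, 80.8 with isocaloric diet and 42.5 and 56.3 with control diet. The means were 362 ± 63.8 and 104 ± 18.3 for fetal alcohol, and 208 ± 9.30 and 49.4 ± 9.78 for control diet (SD, n = 2 each). At both probe sets the order was the same, with fetal alcohol array 2 highest, then fetal alcohol array 1, the isocaloric array and control diet arrays 2 and 1. The differences from control diet were 0.76 ± 0.24 at L25387_g_at (95% interval 0.20 to 1.31, unadjusted p = 0.0135) and 0.93 ± 0.25 at L25387_at (0.36 to 1.497, unadjusted p = 0.0054). Adjusted over all probe sets in limma, these had adjusted p = 0.682 and adjusted p = 0.573. These intervals are not adjusted for the number of probe sets.

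By unadjusted p the Pfkp probe sets ranked 102 and 49 of 5244. They kept their direction in all 13 alternatives for L25387_g_at and in the 12 in which L25387_at was tested, with differences of 0.58 to 0.93 and 0.63 to 1.09 and adjusted p-values from 0.115 to 0.9997. Both fetal alcohol values lay above both control diet values at each probe set, so leaving out 1 array could not turn the direction. Other filters and a fit without the trend leave the difference unchanged. The kept direction is therefore no added support. The Pfkp probe sets were the 2 of 13 member probe sets at least 1.5-fold apart without overlap, against 5.45% of all probe sets (1.54% in the higher direction). This count is of 1 gene. From the isocaloric array the fetal alcohol arrays differed by 0.34 ± 0.30 and 0.31 ± 0.30 (adjusted p = 0.998), and the isocaloric array from control diet by 0.42 ± 0.30 and 0.62 ± 0.30 (adjusted p = 0.853 and 0.799). The comparisons with control diet share the 2 control diet arrays. The isocaloric array lay between the groups at both probe sets.

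The probe sets of other genes most like L25387_at over the 5 arrays, by the root mean square distance of centred log2 values among 4377 tested probe sets with 1 gene symbol, belonged to Cyb5a (0.137), Casp2 (0.150) and Nsf (0.150). Cyb5a measured 79.3 and 112, 81.1, and 45.1 and 68.5 on the fetal alcohol, isocaloric and control diet arrays. The likeness rests on 5 arrays.

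Pfkl, the liver-type subunit, had the widest gap within the fetal alcohol group among the members, 0.85 on the log2 scale. X58865mRNA_at measured 362 and 196 with fetal alcohol, 185 with isocaloric diet and 352 and 368 with control diet. The means were 279 ± 117 for fetal alcohol and 360.4 ± 11.5 for control diet (SD, n = 2 each). Fetal alcohol array 1 lay with the control diet arrays and array 2 with the isocaloric array. The difference from control diet was -0.42 ± 0.31 (limma adjusted p = 0.965), and it was -0.84 without fetal alcohol array 1 and 0.0048 without array 2, so single arrays decided it. Between isocaloric and control diet Pfkl had the largest member difference, -0.92 ± 0.38 (unadjusted p = 0.0392, adjusted p = 0.684). It and Pfkp L25387_at were the 2 of 13 member probe sets at least 1.5-fold apart without overlap there, against 12.4% of all probe sets. Pfkl was the 1 with an unadjusted p under 0.05 in limma, beside 6.81% (5.43% lower).

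Pfkm, the muscle-type subunit, gave different directions at its probe sets. U25651_at measured 1030 and 663 with fetal alcohol, 591 with isocaloric diet and 667 and 556 with control diet, a difference of 0.43 ± 0.27 (adjusted p = 0.949). Fetal alcohol array 1 was above all others and array 2 was within the control diet range. Without array 1 the difference was 0.12 and without array 2 it was 0.75. D21869_s_at measured 155 and 118, 149, and 96.9 and 206 on the fetal alcohol, isocaloric and control diet arrays, a difference of -0.07 ± 0.34. Here the control diet arrays had a gap of 1.01 on the log2 scale, the widest of any tested member.

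The enzymes further down showed small differences. Aldoa, which splits fructose 1,6-bisphosphate, measured 1530 and 1187 with fetal alcohol, 1179 with isocaloric diet and 1130 and 1307 with control diet. Fetal alcohol array 2 and the control diet arrays overlapped, and the difference was 0.15 ± 0.22, with a 95% interval of -0.36 to 0.66. Ldhb encodes the heart-type subunit of lactate dehydrogenase, which favours lactate oxidation. U07181_g_at measured 1004 and 1059 with fetal alcohol, 1104 with isocaloric diet and 1263 and 1252 with control diet. The fetal alcohol values lay below all 3 others with narrow gaps in both groups, and the difference was -0.28 ± 0.20 (limma adjusted p = 0.962), or 1.22-fold lower. U07181_at, designed from the same sequence, measured 1221 and 933 with fetal alcohol, 997 with isocaloric diet and 1081 and 1108 with control diet, a difference of -0.04 ± 0.22, which was 0.0076 when arrays were scaled to equal medians.

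**Figure D3:**
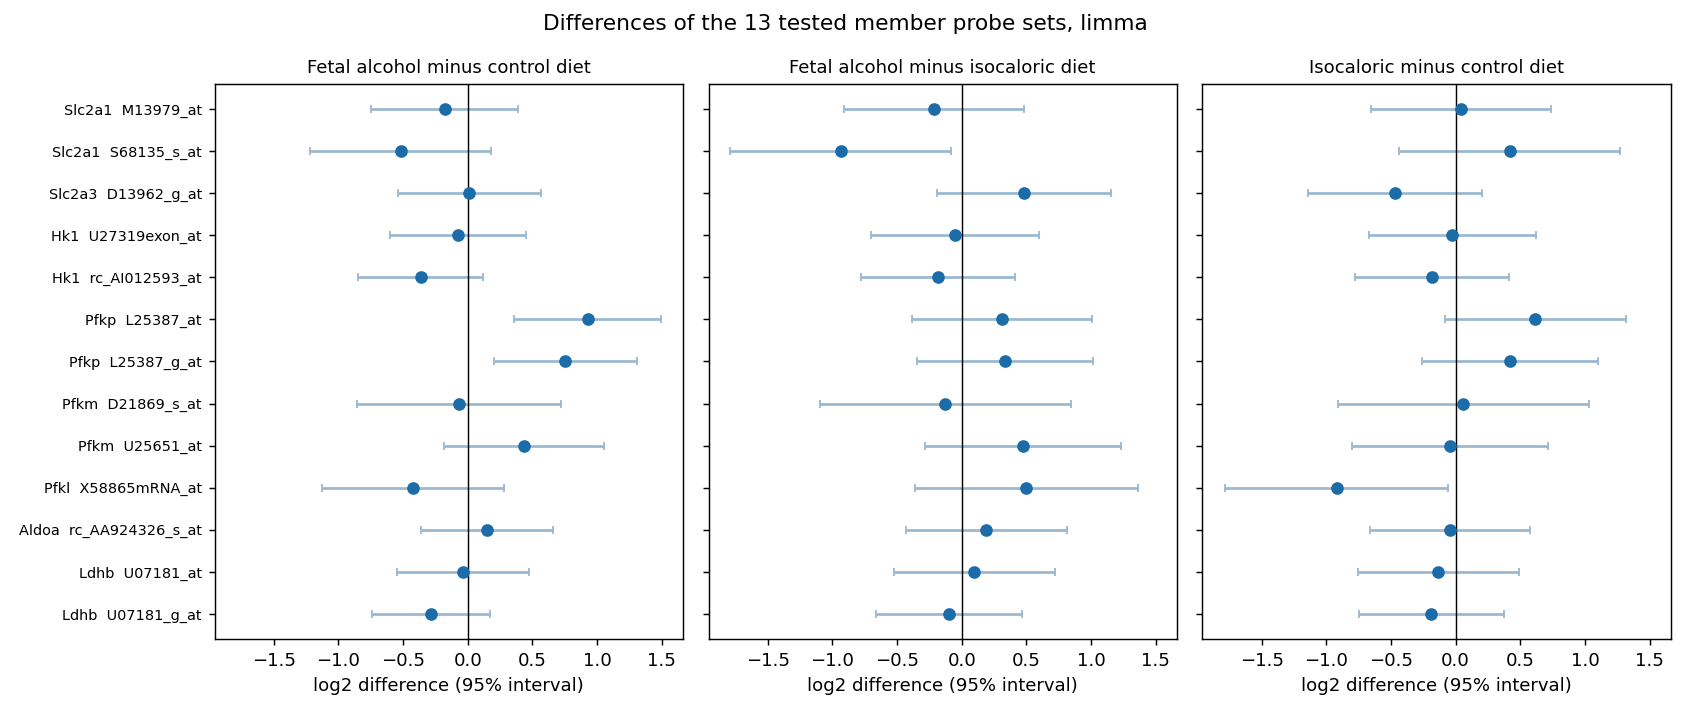
Differences on the log2 scale (horizontal axis) of the 13 tested member probe sets (rows) in 3 comparisons. Points are limma estimates and bars their 95% intervals, not adjusted for the number of probe sets. The Pfkp intervals lie above 0 in fetal alcohol minus control diet, that of Slc2a1 S68135_s_at lies below 0 in fetal alcohol minus isocaloric diet, and that of Pfkl in isocaloric minus control diet.

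Over the 13 tested probe sets, 5 were higher and 8 lower on average in fetal alcohol than in control diet, with a median difference of -0.07, beside 0.0049 over all 5244. The groups did not overlap for 4 of them, 2 above and 2 below, while 34.5% of all probe sets did not overlap (16.8% above and 17.7% below). Both fetal alcohol arrays lay apart from all 3 other arrays for the same 4, Pfkp upward at both probe sets and Hk1 and Ldhb downward at 1 each, beside 16.7% of all probe sets (8.45% above and 8.30% below). The gap between the fetal alcohol arrays had a median of 0.35 over the members and of 0.30 over all probe sets, and that between the control diet arrays one of 0.21 and 0.20. At 2 of the 13, both of them Pfkp and higher, the unadjusted p was under 0.05, beside 5.61% of all probe sets (1.66% higher). From the isocaloric array, 7 were higher and 6 lower with a median of 0.10, beside -0.0029 over all probe sets, and 6 above and 5 below did not overlap, beside 59.9% of all probe sets in either direction. Isocaloric minus control diet had 5 higher and 8 lower with a median of -0.04, beside 0.016, and 3 above and 5 below did not overlap, beside 75.8%. With 1 isocaloric array, non-overlap is frequent in both of these comparisons.

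The other enzymes of glycolysis differed by 0.55 or less in size. Of 22 listed, 14 had a probe set and 9 were tested, with 3 higher and 6 lower after fetal alcohol, a median of -0.10 beside 0.015 over the 3174 genes tested, and 0 past the threshold or an unadjusted p of 0.05 in limma. Pfkfb1, a bifunctional enzyme that sets the level of the phosphofructokinase activator fructose 2,6-bisphosphate, had -0.55 ± 0.33. It was dim, at 40.4 and 20.4 with fetal alcohol, 54.9 with isocaloric diet and 62.8 and 35.5 with control diet, and its groups overlapped. Pgam1, phosphoglycerate mutase, had 0.29 ± 0.20 and measured 2014 and 1719 with fetal alcohol, 1610 with isocaloric diet and 1467 and 1578 with control diet, with the fetal alcohol values above all others. Aldoc, the aldolase of astrocytes, had -0.25 ± 0.26, and Hk2, an inducible hexokinase, -0.25 ± 0.28.

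Among the other carriers of glucose and monocarboxylates, 7 of 10 were tested, 4 higher and 3 lower, with a median of 0.011. Slc2a5, the fructose carrier GLUT5, had the largest difference of any gene of the pathway lists, -0.97 ± 0.26 (unadjusted p = 0.00569, adjusted p = 0.582 in limma). It measured 23.6 and 36.1 with fetal alcohol, 45.0 with isocaloric diet and 75.2 and 60.9 with control diet, so that the fetal alcohol values were lowest. In brain GLUT5 is known from microglia, whose markers, 6 of 7 with a probe set, summed to 382 and 349 with fetal alcohol, 336 with isocaloric diet and 404 and 566 with control diet. C1qb alone measured 162 and 129, 147, and 162 and 354 in the same order. Without C1qb the sums of fetal alcohol and control diet overlap. Of the 4 microglia markers tested, 2 were higher and 2 lower in fetal alcohol than in control diet. The part of microglia in the Slc2a5 difference was not tested. Bsg, the chaperone basigin of the lactate carriers, had 0.34 ± 0.20, and measured 2074 and 1652, 2028, and 1482 and 1443 on the fetal alcohol, isocaloric and control diet arrays, with both control diet values lowest. Slc5a1, a sodium-coupled glucose carrier, had 0.23 ± 0.27.

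Enzymes that lead pyruvate into the citric acid cycle and its shuttles had 18 of 31 tested, with 11 higher and 7 lower, a median of 0.09 and 0 past the threshold. For 5 of them both fetal alcohol arrays were above both control diet arrays and for 0 below, beside 16.8% and 17.7% of all probe sets. The largest were Got1, an aspartate aminotransferase of the malate-aspartate shuttle (0.31 ± 0.23), Pdhb of the pyruvate dehydrogenase complex (0.29 ± 0.22) and Cs, citrate synthase (0.28 ± 0.24). Isocaloric minus control diet gave these genes a median of 0.19, and Got1 0.33, Pdhb 0.44 and Cs 0.41, from the same control diet arrays. The side branches of glycolysis, 8 of 20 tested, were evenly split with 4 higher and 4 lower and a median of -0.02. Sord, sorbitol dehydrogenase, had -0.47 ± 0.25, and Tkt, transketolase of the pentose phosphate pathway, -0.28 ± 0.25.

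Genes of oxygen and insulin regulation, 12 of 20 tested, had a median of -0.13 with 5 higher and 7 lower. Irs2, an adaptor of the insulin receptor, measured 45.0 and 78.7 with fetal alcohol, 49.5 with isocaloric diet and 119 and 94.6 with control diet, a difference of -0.73 ± 0.29 (unadjusted p = 0.0339, adjusted p = 0.820 in limma). The isocaloric array lay within the range of the fetal alcohol arrays. Akt2, a kinase downstream of Irs2, had -0.49 ± 0.22, and Myc, a transcription factor with many glycolytic targets, 0.56 ± 0.34. Hif1a, the oxygen-regulated subunit of the hypoxia-inducible factor, had 0.02 ± 0.24, and its target Vegfa 0.05 ± 0.32.

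**Figure D4:**
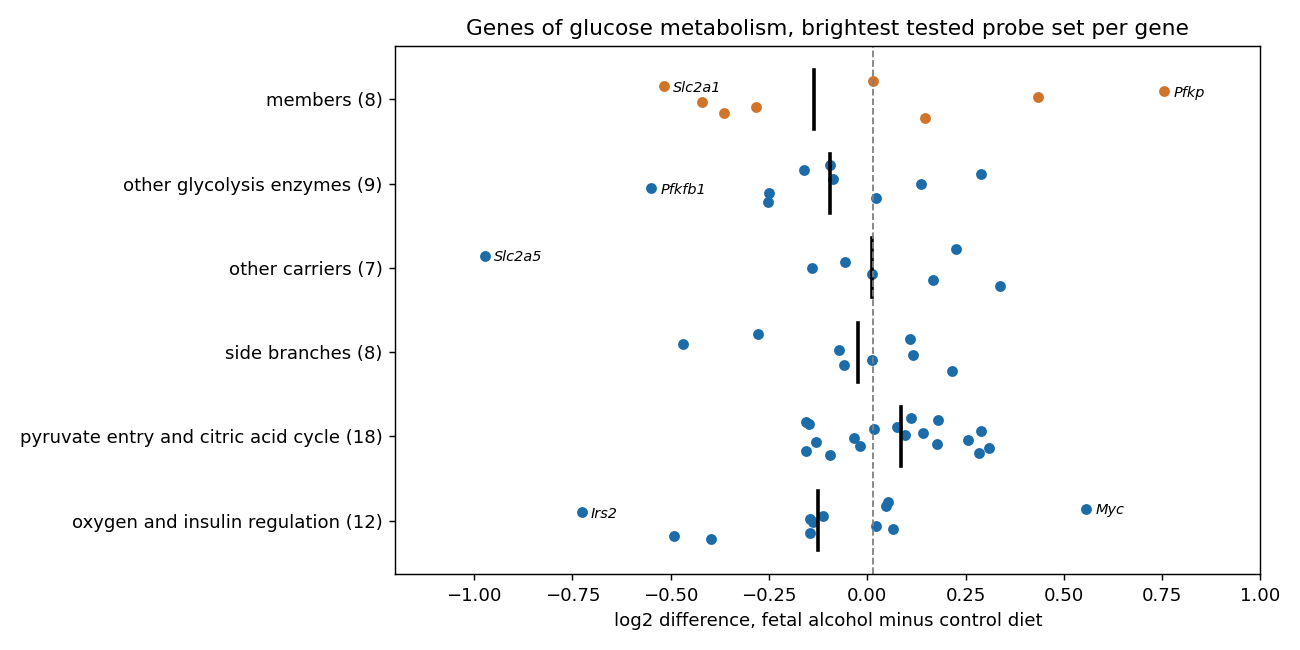
Difference of fetal alcohol from control diet on the log2 scale (horizontal axis) for each tested member and gene of the 5 pathway lists, at its brightest probe set, by list (rows, marker lists not drawn, with the number of genes tested). Black bars are list medians and the dashed line is the median over 3174 genes, 0.015. Genes with a difference of at least 0.5 are named: among those drawn, Pfkp stands highest at 0.76 and Slc2a5 lowest at -0.97.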

How the data were processed

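Transcript levels in hippocampus were measured on 5 arrays with 8799 probe sets. The deposited values are intensities on a linear scale, and how the authors scaled them is not given in the sources used here. Trimmed means (2%) of the deposited columns were within a ratio of 1.0002, so they were used as deposited. Tests left out 59 array control probe sets. The other 8740 became log2(intensity + 10.6), the offset being the 20th percentile of their values, and a filter on mean log2 at the 40th percentile kept 5244 of them for testing. One limma 3.58.1 model (R 4.3.3) covered all 3 groups, with an intensity trend, 2-sided tests, and Benjamini-Hochberg adjustment over all probe sets at 0.05. There were 2 residual and 6.30 prior degrees of freedom, and the single isocaloric array was assumed to vary like the others. Precision is limited by the number of arrays. The model was also run on simulated arrays with independent normal noise, which cannot show how it behaves with effects shared within an array.

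Gene names came from the platform annotation, updated through gene identifiers. Probe sets with several symbols were not named. The members and lists were chosen with earlier results of these data known. Named are all members, and of each list the 2 to 4 tested genes with the largest difference of fetal alcohol from control diet; Hif1a and Vegfa were added after their values were seen. The brightest probe set stood for a gene in lists. The results turn on members at least 1.5-fold apart without overlap, or with an unadjusted p under 0.05, in any comparison. Alternatives were other scalings, offsets and filters, a fit without the trend, each array left out, a fit of 4 arrays and the replicate number as a block.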

Additional observations from a re-analysis of the deposited data

How the results depend on the processing

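No member probe set passed the threshold of 0.05 in limma in any of the 13 alternatives for fetal alcohol against control diet or the 11 for each other comparison. The count over all probe sets, 0 as reported in each comparison, became 1 (fetal alcohol against control diet) and 3 (fetal alcohol against isocaloric diet) under quantile normalization, 9 and 3 with equal medians and 1 in the first with an offset of 50. With 1 array left out it ranged from 0 to 22 in both comparisons of fetal alcohol (17 and 22 against control diet without fetal alcohol arrays 1 and 2) and from 0 to 14 between the diets. With the replicate block it was 6 for fetal alcohol against control diet, with 0 of the members and Pfkp at 0.93 (adjusted p = 0.4995), and it changed no call of a member. Same-numbered arrays deviated from their group means with a correlation of -0.113 over probe sets, and no label says that a number marks a shared animal or batch, so the arrays share only a number.

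Of the 2 Pfkp probe sets at least 1.5-fold apart, 1 was left with the filter at the 60th percentile, which removes L25387_at. Between the diets this filter left 1 of 2 and an offset of 50 also 1. With 1 array left out the count was 2 to 3 for fetal alcohol against control diet (3 without fetal alcohol array 1, 3 without array 2 and 3 without control diet array 1), 1 to 3 between the diets and 1 to 3 for fetal alcohol against isocaloric diet. The members' median ran from -0.23 (without fetal alcohol array 1) to 0.024 (without control diet array 2) against control diet and from -0.059 to 0.15 against isocaloric diet.

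Small differences changed sign. With equal medians, which moved the median of all probe sets by less than 0.1, Ldhb U07181_at was 0.0076 against control diet, and between the diets Aldoa was 0.018, Pfkm U25651_at 0.019 and Hk1 U27319exon_at 0.035. With 1 array left out, fetal alcohol minus control diet ran from -0.16 to 0.19 for Slc2a3, -0.57 to 0.44 for Pfkm D21869_s_at, -0.034 to 0.33 for Aldoa, -0.23 to 0.16 for Ldhb U07181_at, -0.17 to 0.02 for Hk1 U27319exon_at and -0.84 to 0.0048 for Pfkl. Against isocaloric diet it ran from -0.31 to 0.058 for Pfkm D21869_s_at and -0.10 to 0.29 for Ldhb U07181_at. Between the diets it ran from -0.45 to 0.57 for Pfkm D21869_s_at, -0.17 to 0.088 for Pfkm U25651_at, -0.090 to 0.17 for Slc2a1 M13979_at, -0.15 to 0.061 for Aldoa and -0.12 to 0.075 for Hk1 U27319exon_at. The causes were not tested.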

Other observations

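Of the 12 tested genes of oxygen and insulin regulation, the isocaloric array was above both control diet arrays for 2 and below both for 8. Over all probe sets, 75.8% did not overlap between the diets. The largest of these differences, named after their values were seen, were those of Hmox1, Irs2 and Igf1r. Irs2 had -0.96 ± 0.35, with its isocaloric value within the range of the fetal alcohol arrays. Hmox1, heme oxygenase 1, measured 268 with isocaloric diet and 117 and 145 with control diet, a log2 difference of 0.98 ± 0.34 (limma unadjusted p = 0.0188, adjusted p = 0.631), while fetal alcohol gave 148 and 93.1. Igf1r, the receptor of insulin-like growth factor 1, measured 42.2 with isocaloric diet and 71.1 and 78.8 with control diet, a difference of -0.70 ± 0.28 (limma unadjusted p = 0.0343, adjusted p = 0.680), while fetal alcohol gave 66.1 and 67.0. The isocaloric value rests on 1 array in each case.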
